A study of Mus musculus with 2 samples.

Results

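The miR-128, miR-129 and miR-138 families are brain microRNA families whose mature microRNA is encoded at 2 places in the mouse genome. Their 6 genes, Mir128-1, Mir128-2, Mir129-1, Mir129-2, Mir138-1 and Mir138-2, were chosen by name from the 2202 microRNA genes of the GENCODE M21 annotation, and all 6 were found in the count tables. The data are microRNA-seq libraries, in which RNA under 30 bases is sequenced, from the left cerebral cortex of male adult mice, 8 to 10 months old, whose strain is labelled 5xFAD/CAST. 5xFAD is a transgenic line that models amyloid deposition through transgenes under the neuronal Thy1 promoter, and CAST usually stands for a wild-derived inbred strain. Whether the sampled animals carried the transgenes is not stated in the labels. There was 1 group of 2 libraries, labelled as biological replicates 1 and 2, and no control group was analysed here. Both tissue samples carry a single donor identifier, so differences between the libraries may be technical. P-values between the libraries cover counting error only, and not the spread between samples.

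A microRNA gene is transcribed as a longer RNA that folds into a hairpin, and the enzymes Drosha and Dicer cut from it the short mature strands of the 5′ arm (5p) and the 3′ arm (3p). The loaded strand finds its target messengers mainly through its seed, bases 2 to 8 from the 5′ end. In brain, miR-128 is a neuronal microRNA known to restrain neuronal excitability, miR-129-5p is known to repress translation of a voltage-gated potassium channel, and miR-138 is known to limit the size of dendritic spines.

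The sequences show which reads can be assigned to a single locus. Both loci of each family carry the same mature strand on 1 arm, and the counts were deposited per gene, not per arm. The 3 shared strands follow, from RefSeq (GRCm38.p6, the assembly also called mm10), with the seed in capitals.
mmu-miR-128-3p: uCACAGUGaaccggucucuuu
mmu-miR-129-5p: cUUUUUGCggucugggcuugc
mmu-miR-138-5p: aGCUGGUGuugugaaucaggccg
The strands of the opposite arm that RefSeq lists differ between the loci of a family, also with the seed in capitals.
mmu-miR-128-1-5p: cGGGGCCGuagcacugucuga
mmu-miR-128-2-5p: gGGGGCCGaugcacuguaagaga
mmu-miR-129-2-3p: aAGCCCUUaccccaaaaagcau
mmu-miR-138-1-3p: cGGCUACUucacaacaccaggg
mmu-miR-138-2-3p: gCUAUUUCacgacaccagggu
The 2 opposite-arm strands of miR-128 have the seed GGGGCCG in common, while those of miR-138 have different seeds. Among the 1679 mouse mature microRNAs of the RefSeq table, none outside these 6 genes had any of the 7 seeds at bases 2 to 8. The seed of miR-128-3p did occur at bases 3 to 9 of mmu-miR-27a-3p and mmu-miR-27b-3p, microRNAs of the miR-23, miR-27 and miR-24 clusters, and at bases 1 to 7 of mmu-miR-216a-3p. The seed of miR-129-2-3p occurred at bases 3 to 9 of mmu-miR-6991-3p, and no other such match by a shift of 1 base was found.

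The hairpins show where the 2 loci of a family part. Each is printed 5′ to 3′, and capitals mark the longest stretch that it has in common with the other locus of its family.
Mir128-1: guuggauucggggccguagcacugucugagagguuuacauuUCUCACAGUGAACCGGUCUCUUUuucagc
Mir128-2: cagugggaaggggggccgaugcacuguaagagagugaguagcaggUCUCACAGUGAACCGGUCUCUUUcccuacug
Mir129-1: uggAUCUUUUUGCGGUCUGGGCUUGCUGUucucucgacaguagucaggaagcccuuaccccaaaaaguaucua
Mir129-2: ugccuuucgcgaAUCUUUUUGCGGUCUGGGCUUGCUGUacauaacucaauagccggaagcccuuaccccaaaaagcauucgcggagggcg
Mir138-1: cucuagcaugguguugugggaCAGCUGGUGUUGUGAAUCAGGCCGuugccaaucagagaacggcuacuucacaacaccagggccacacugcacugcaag
Mir138-2: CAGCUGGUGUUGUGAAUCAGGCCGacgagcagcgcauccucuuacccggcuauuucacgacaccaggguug
The common stretch is 23 bases long in miR-128, 26 in miR-129 and 24 in miR-138, and in each family it holds the whole shared mature strand. Counted from 1 at the 5′ end of the mature strand, with the first locus named first, the loci first differ downstream by U22C in miR-128-3p, U25A in miR-129-5p and U24A in miR-138-5p. A read of miR-128-3p that starts at the annotated base and is 21 bases long is therefore the same at both loci, and with 1 further genomic base it is not. For miR-129-5p, which is also 21 bases long, 4 further bases are needed, and for the 23 bases of miR-138-5p, 1. Whether bases beyond the mature end in the reads came from the genome was not tested. Assigning such reads to a locus takes this for granted. The bases that part the loci are those of the mm10 reference, and whether the sampled mice carry them was not checked.

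The opposite arms part the loci to different extents. In miR-128 the 5p strand of Mir128-1 differs from the matching stretch of Mir128-2 at 5 of its 21 bases (C1G, U9A, A10U, C18A and U19A, counted from the 5′ end of the strand). In miR-129 the 3p strand of Mir129-2 differs from the matching stretch of Mir129-1 at a single base, C20U. In miR-138 the 3p strand of Mir138-1 differs from the matching stretch of Mir138-2 at 2 of 22 bases, C7U and A13G.

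The share of each hairpin that is found nowhere else among annotated transcripts was counted over all windows of 22 bases and both strands. All windows were unique except 2 of 49 in Mir128-1, 2 of 55 in Mir128-2, 5 of 52 in Mir129-1, 5 of 69 in Mir129-2, 3 of 78 in Mir138-1 and 3 of 50 in Mir138-2. The exceptions lay over the shared strand, and each was found at the other locus of the family or in a transcript that covers that locus. At 24 bases no window of either miR-128 locus was shared, while 3 were shared in each miR-129 locus and 1 in each miR-138 locus. At 18 bases more were shared, 13 in each miR-129 locus, 6 in Mir128-1, 8 in Mir128-2, 8 in Mir138-1 and 7 in Mir138-2. For Mir128-2 and Mir138-1 the matches at 18 bases included a gene outside the family. The search covered 141767 annotated transcripts and not the rest of the genome. Reads that mapped to several places form a total outside the gene counts, 1.28 and 1.26 reads for each assigned read in replicates 1 and 2, and how many of them came from these families was not measured here. The levels below are therefore those of reads assigned to a locus, and not of the mature microRNA.

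**Figure D1:**
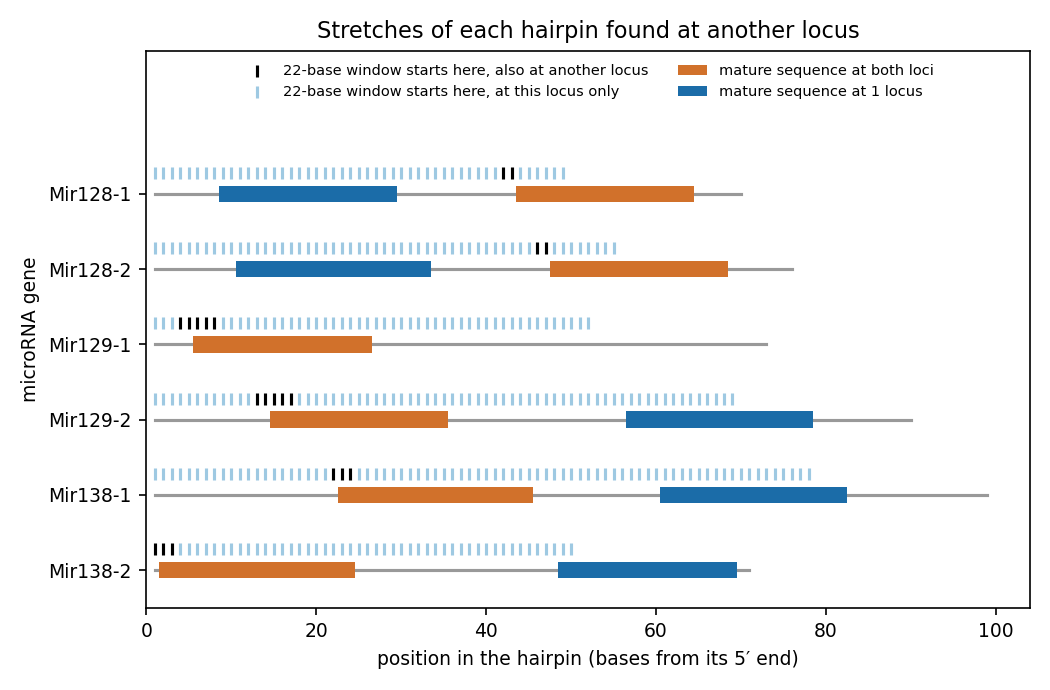
Hairpins of the 6 genes drawn from their 5′ end in bases, with the mature strands listed by RefSeq as bars (orange where the strand is at both loci of the family, blue where it is at 1). Ticks above each hairpin mark the start of every 22-base window. The black ticks, windows also found at another locus, number 2, 2, 5, 5, 3 and 3 from Mir128-1 down to Mir138-2 and lie around the start of the orange bar.

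The 6 loci lie apart from one another, on chromosomes 1, 2, 6, 8 and 9 (mm10, counted from 1). Mir128-1 (1:128202361 to 128202430, plus strand) is in an intron of R3hdm1, and Mir128-2 (9:112118636 to 112118711, minus strand) is in an intron of Arpp21, which encodes a phosphoprotein regulated by cyclic AMP in neurons. Mir129-1 (6:29022619 to 29022691, plus strand) overlaps an exon of the long non-coding RNA gene Gm3294, and the nearest protein-coding gene is the leptin gene Lep at 37.5 kb. Mir129-2 (2:94241364 to 94241453, minus strand) is intronic in the long non-coding RNA gene Mir670hg. Mir138-1 (9:122682876 to 122682974, plus strand) overlaps an exon of the transcribed pseudogene Gm47135. Mir138-2 (8:94324311 to 94324381, plus strand) overlaps an exon of the long non-coding RNA gene C78859, 4.82 kb from the ion transporter gene Slc12a3. Protein-coding hosts were thus found only for the miR-128 loci. Mir129-2 is also the only one of the 6 with a microRNA gene on the other strand. That gene, Mir129b (2:94241378 to 94241442, plus strand), covers 65 of the 90 bases of Mir129-2, all 21 bases of its 5p strand and 20 of the 22 bases of its 3p strand.

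The sense counts of microRNA genes summed to 4929428 reads in replicate 1 and 4441328 reads in replicate 2, and levels are counts scaled to 1000000 of these (CPM). No scaling to gene length was made, because a read spans the whole mature strand, and the preference of library preparation for some sequences was not measured. Detection required 10 reads in each library, which 417 genes reached, all 6 loci among them. One read corresponded to 0.203 and 0.225 CPM. Of the lists of cell type markers, that of other neuronal microRNAs was the longest and held the largest share. It had 20 of 22 members detected and 5.58 ± 1.32% of the reads (SD, n = 2). The lists for astroglia (7 of 7 detected, 3.71 ± 0.666%), vessels (3 of 3, 2.11 ± 0.0986%), oligodendrocytes (3 of 4, 0.451 ± 0.158%), microglia and leukocytes (5 of 5, 0.201 ± 0.0103%), choroid plexus and ependyma (5 of 5, 0.173 ± 0.0345%) and red blood cells (3 of 3, 0.0345 ± 0.0363%) took smaller shares. The lists differ in length, and the lead of the neuronal list leaned on Mir132. Without Mir132 its mean share was 2.36%, below the full astroglial list and above that list without Mir23b (1.72%). Some neuronal members were near the detection limit, with 21 and 12 reads at Mir124a-1 and 12 and 16 at Mir9-2. The undetected members were Mir124a-2 (9 and 7 reads) and Mir124a-3 (3 and 0). In bulk tissue, fewer cells of a type and less RNA per cell cannot be told apart.

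Together the 6 loci took 2.47% of the microRNA reads in replicate 1 and 1.59% in replicate 2 (2.03 ± 0.622%, SD, n = 2). The miR-128 loci held most of this in both libraries, with 16414 CPM in replicate 1 against 9236 CPM in replicate 2. The miR-138 loci followed with 6357 and 5465 CPM, and the miR-129 loci came last with 1896 and 1174 CPM. The order of the 3 families was thus the same in both libraries.

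Mir128-1 was the most abundant of the 6, with 66823 reads (13556 CPM) in replicate 1 and 33278 reads (7493 CPM) in replicate 2, a mean of 10524 ± 4287 CPM (SD, n = 2). It ranked 14 and 26 among all microRNA genes of these libraries. Its partner Mir128-2 had 14088 reads (2858 CPM) and 7743 reads (1743 CPM), a mean of 2301 ± 788 CPM, and ranked 54 and 71. The lower value of Mir128-1 was above the higher value of Mir128-2.

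Mir138-1 had 15339 reads (3112 CPM) in replicate 1 and 13118 reads (2954 CPM) in replicate 2, a mean of 3033 ± 112 CPM. Mir138-2 had 15998 reads (3245 CPM) and 11154 reads (2511 CPM), a mean of 2878 ± 519 CPM. Both values of Mir138-1 lay between those of Mir138-2, so the 2 loci did not differ beyond their spread.

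Mir129-2 had 8220 reads (1668 CPM) in replicate 1 and 4452 reads (1002 CPM) in replicate 2, a mean of 1335 ± 470.3 CPM. Mir129-1 was the least abundant of the 6, with 1125 reads (228 CPM) and 763 reads (172 CPM), a mean of 200.0 ± 39.9 CPM and ranks of 162 and 174. The libraries of the 2 loci did not overlap.

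In order of mean level the loci were Mir128-1, Mir138-1, Mir138-2, Mir128-2, Mir129-2 and Mir129-1. The ranges of neighbours overlapped between Mir138-1 and Mir138-2 and between Mir138-2 and Mir128-2, and they were apart at the other 3 steps. The step from Mir128-2 to Mir129-2 was narrow, from 1743 CPM as the lowest value of the one to 1668 CPM as the highest of the other. Within each library Mir128-1 was first and Mir128-2, Mir129-2 and Mir129-1 were the last 3 in this order, while the miR-138 loci changed places.

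**Figure D2:**
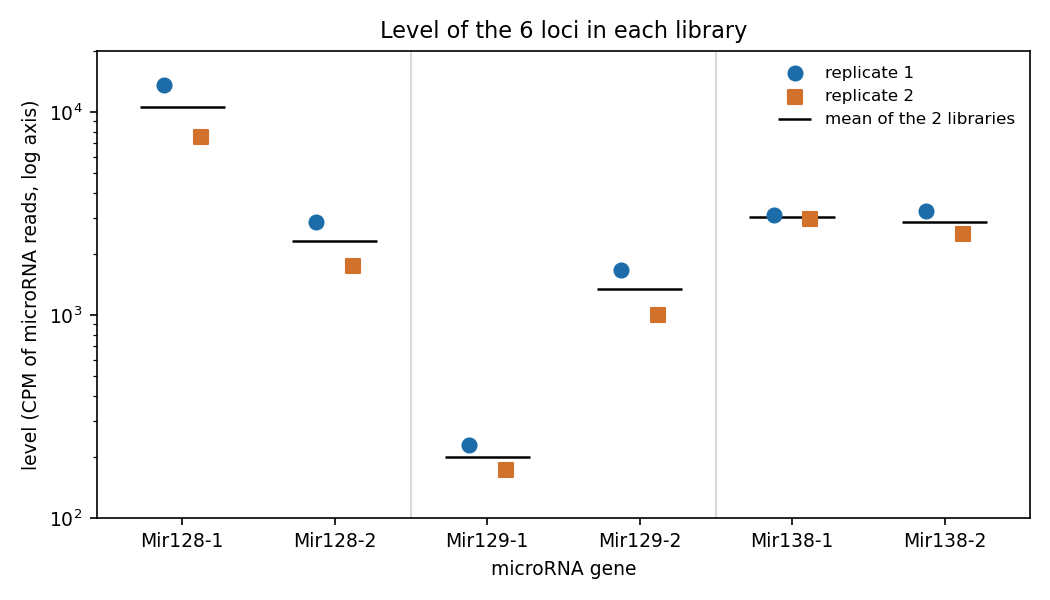
Level of each locus in CPM of microRNA reads on a log axis, with circles for replicate 1, squares for replicate 2 and a bar at the mean of both. Mir128-1 stands at 13556 and 7493 CPM and Mir129-1 at 228 and 172 CPM, and the circle lies above the square at all 6 loci.

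Within the miR-128 family the first locus was dominant in the reads assigned to a locus. For reads of the shared strand that start at the annotated base, the assignment rests on bases from 22 on. Base 22 is U at Mir128-1 and C at Mir128-2, and whether it came from the genome in the reads was not tested. Mir128-1 had 4.74 times the reads of Mir128-2 in replicate 1 and 4.30 times in replicate 2, log2 ratios of 2.25 and 2.10 (mean 2.17 ± 0.10, SD, n = 2). Its share of the family's reads was 82.6% (exact Clopper-Pearson 95% interval 82.3 to 82.8%) and 81.1% (80.7 to 81.5%). The ratio moved little between the libraries compared with its size. Intervals here are binomial within 1 library, so they cover counting error only. They treat reads as independent, and no collapse of reads by molecular identifiers was made here. Reads copied from the same molecule would make the intervals too narrow.

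Within the miR-129 family the second locus was dominant in the sense counts assigned to a locus. For reads of the shared strand that start at the annotated base, the assignment rests on bases from 25 on. Base 25 is U at Mir129-1 and A at Mir129-2, and whether it came from the genome in the reads was not tested. The 3p strand of Mir129-2 differs from Mir129-1 only at base 20. Mir129-2 had 7.31 times the reads of Mir129-1 in replicate 1 and 5.83 times in replicate 2, so the log2 ratio of Mir129-1 to Mir129-2 was -2.87 and -2.54 (mean -2.71 ± 0.23). Mir129-1 held 12.0% of the family's reads in replicate 1 (exact interval 11.4 to 12.7%) and 14.6% in replicate 2 (13.7 to 15.6%). The order of the loci was the same in both libraries.

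This order rests on counting by strand. In the deposited column without regard to strand, Mir129-2 kept 16 of its 8220 reads (0.195%) in replicate 1 and 31 of 4452 (0.696%) in replicate 2. At the other 5 loci the columns held the same counts. The log2 ratio of Mir129-1 to Mir129-2 then became 5.38 ± 1.07, with the direction turned. The reads missing from that column, 8204 and 4421, amounted to 2.35% and 1.39% of the reads listed there as ambiguous. On the plus strand, where Mir129b lies, 1 read was counted in replicate 1 and 4 in replicate 2.

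The miR-138 family was close to even in the reads assigned to a locus. For its shared strand the assignment rests in the same way on base 24, U at Mir138-1 and A at Mir138-2. Mir138-1 had 0.959 times the reads of Mir138-2 in replicate 1 and 1.18 times in replicate 2, log2 ratios of -0.061 and 0.23 (mean 0.09 ± 0.21). Its share of the family's reads was 48.9% (exact interval 48.4 to 49.5%) and 54.0% (53.4 to 54.7%). The sign turned between the libraries, and both intervals lay clear of even shares on opposite sides. With 2 libraries, an exact two-sided permutation of signs cannot give a p below 0.5, so no test of the ratio between loci was made for any family.

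The locus shares were compared between the libraries by a two-sided Fisher's exact test in every annotated family with exactly 2 loci and at least 10 reads in each library, with Benjamini-Hochberg adjustment over the 23 such families. A family here means gene symbols with the same stem that end in the numbers 1 and 2 and in no other number. The shares differed in 14 families (60.9% of those tested), among them all 3 of miR-128, miR-129 and miR-138. The log2 ratio of the first locus to the second changed from replicate 1 to replicate 2 by -0.14 in miR-128 (adjusted p = 9.92e-10, Fisher's exact test), by 0.32 in miR-129 (adjusted p = 2.19e-05) and by 0.29 in miR-138 (adjusted p = 2.01e-31). The test sees counting error and compares these libraries, not conditions. In the column without regard to strand the miR-129 change was -1.51, with the sign turned.

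Other families with 2 loci give the background. Of 43 annotated families with exactly 2 loci by symbol, 20 had both loci detected, and 17 of these are neither miR-128, miR-129 nor miR-138. Genes with another stem were not counted in a family, so Mir7b (2221 and 2108 CPM) is not part of Mir7. In the 17 the absolute mean log2 ratio had a median of 1.34 and went from 0.07 to 8.36. The widest were Mir219a (-8.36 ± 1.07), a family of oligodendrocytes, and Mir181b (-6.17 ± 0.19), and the narrowest were Mir365 (0.07 ± 0.44) and Mir7 (-0.26 ± 0.23). Mir365 was near the detection limit, with 13 and 10 reads at its loci in replicate 1 and 11 and 13 in replicate 2. By that measure miR-129 was in place 6, miR-128 in place 7 and miR-138 in place 19 of the 20. The change between libraries had a median of 0.47 in the 17 families as an absolute log2 difference, with a range of 0.05 to 1.69, and stood at 0.14, 0.32 and 0.29 in miR-128, miR-129 and miR-138. The first locus was above the second in 1 library and below it in the other in 2 of the 17 families, and in miR-138.

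**Figure D3:**
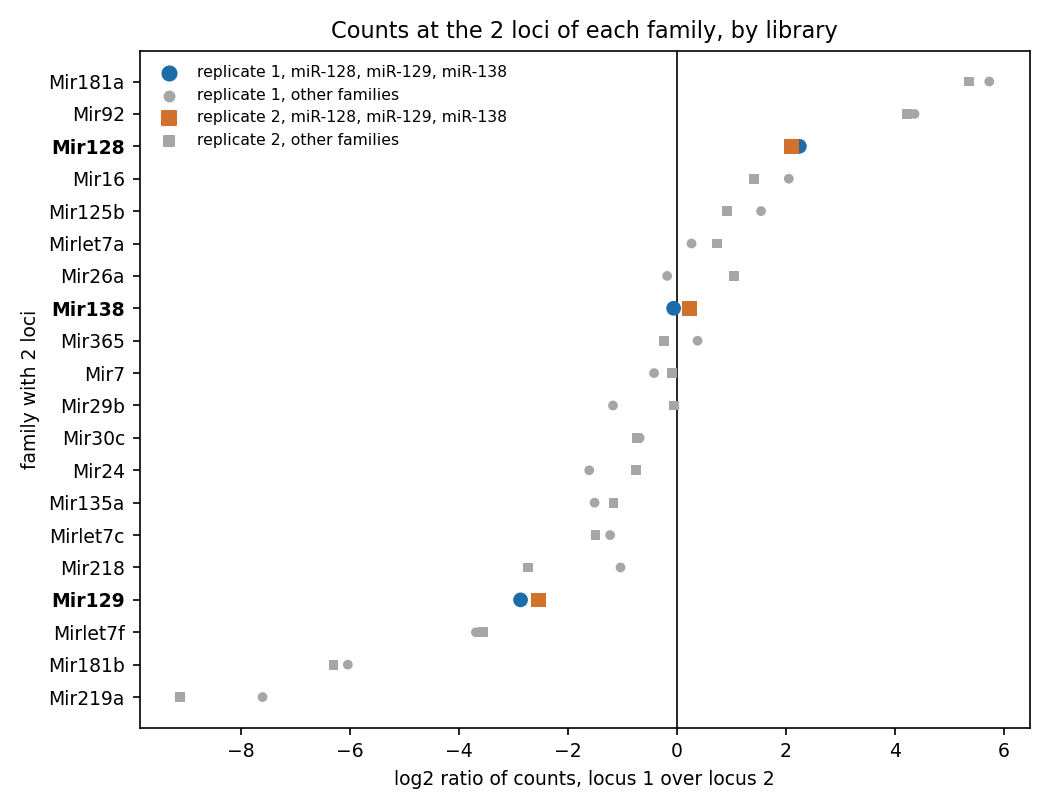
Log2 ratio of the sense counts of locus 1 to locus 2 for the 20 families with 2 detected loci, ordered by the mean, with circles for replicate 1 and squares for replicate 2. Mir128 (2.25 and 2.10) lies on the side of locus 1, Mir129 (-2.87 and -2.54) on the side of locus 2, and the points of Mir138 (-0.061 and 0.23) lie on either side of 0.

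All 6 loci had a lower level in replicate 2 than in replicate 1. By an exact two-sided binomial test and Benjamini-Hochberg adjusted p-values across the 417 detected genes, all 6 were called lower, beside 59.2% of detected genes called in either direction, 34.5% called lower and 24.7% called higher. The median log2 ratio of replicate 2 to replicate 1 was -0.56 over the 6 loci and -0.05 over the 417 genes. The libraries as a whole differed by more than counting error, with a biological coefficient of variation of 0.340 over the detected genes (edgeR).

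Mir128-1 differed most, with a log2 ratio of -0.86 (exact 95% interval -0.87 to -0.84), wider than that of its partner Mir128-2 at -0.71 (-0.75 to -0.67). Mir129-2 stood at -0.73 (-0.79 to -0.68) and Mir129-1 at -0.41 (-0.54 to -0.28; adjusted p = 3.1e-09, exact binomial test). Mir138-2 was at -0.37 (-0.40 to -0.33). Mir138-1 had the smallest difference, at -0.08 (-0.11 to -0.04; adjusted p = 2.62e-05, exact binomial test), and this was lost with TMM scaling, at -0.02 (adjusted p = 0.276, exact binomial test). By absolute log2 ratio, Mir128-1 was at the percentile 83.0 of the detected genes, Mir129-2 at 77.5, Mir128-2 at 77.2, Mir129-1 at 54.2, Mir138-2 at 49.4 and Mir138-1 at 11.8. In CPM of the sense counts the highest ratio of replicate 1 to replicate 2 was 1.81, at Mir128-1.

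**Figure D4:**
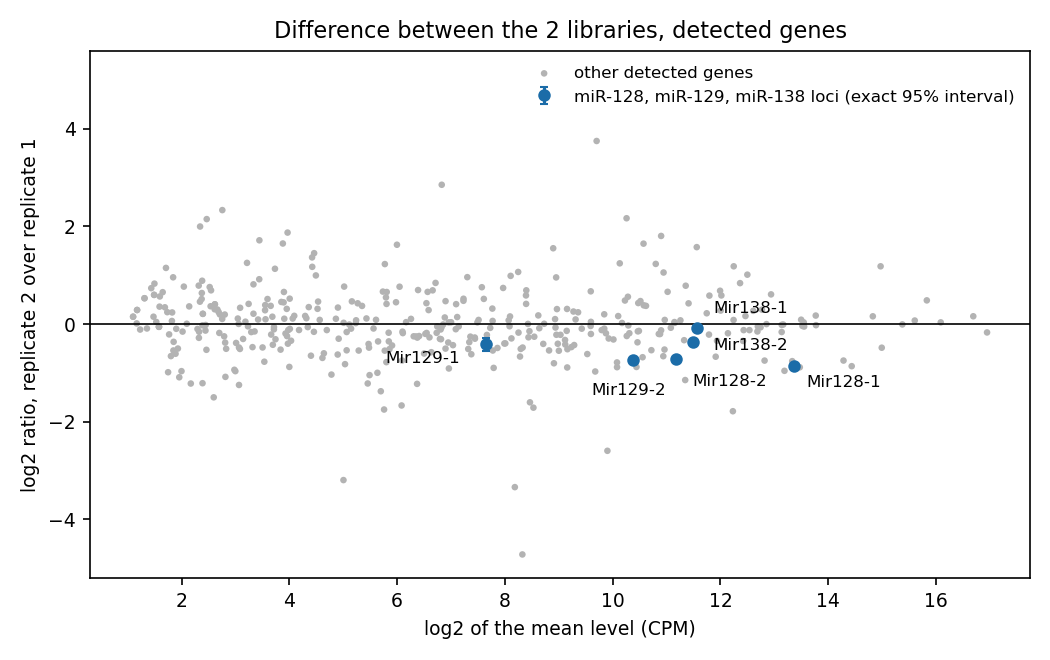
Log2 ratio of replicate 2 to replicate 1 against the log2 mean level in CPM for the 417 detected genes, with the 6 loci in blue and their exact 95% intervals as bars. The 6 loci lie below 0, from -0.08 at Mir138-1 to -0.86 at Mir128-1, inside the spread of the grey points.

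Scaling bore on the size of these differences. When counts were scaled to all reads of the table, including unmapped and unassigned ones, the median of the detected genes moved to -0.25, and 73.0% of the called genes were lower in replicate 2, against 58.3% with CPM. Beside that median, Mir128-1 was at -1.06, Mir128-2 at -0.91, Mir129-2 at -0.94, Mir129-1 at -0.61, Mir138-2 at -0.57 and Mir138-1 at -0.28. Under TMM scaling 5 of the 6 loci were called lower.

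Other neuronal microRNAs did not all differ in this direction. Of the 20 detected members of that list, 11 were called lower in replicate 2, 5 higher and 4 neither, and the median log2 ratio was -0.21. Those called lower were 55% of the detected members, beside 34.5% of all detected genes called lower and 24.7% called higher. The list was led by Mir132, a microRNA induced by neuronal activity, with 19682 CPM in replicate 1 and 44698 CPM in replicate 2. Mir137, a regulator of synapse function, stood at 12338 and 6351 CPM, and Mir382, of the imprinted Dlk1-Dio3 locus, at 5667 and 6838 CPM. The share of the reads held by the list was 4.65% in replicate 1 and 6.51% in replicate 2. Without Mir132, which had the widest gap in CPM, it was 2.68% and 2.04%. Mir137 had the widest gap among the rest of the list, so this fall may rest on few genes.

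The marker lists of other cell types differed between the libraries in both directions. The calls below stand beside 34.5% of all detected genes called lower in replicate 2 and 24.7% called higher. The astroglial list held 4.19% and 3.24% of the reads, with 2 members called lower in replicate 2, 3 higher and 2 neither, and without Mir23b (25038 and 14908 CPM) it held 1.68% and 1.75%. The list for choroid plexus and ependyma held 0.197% and 0.148%, with 4 of 5 members called lower and 1 higher, and without Mir204 (1084 and 553 CPM) 0.0886% and 0.0931%. The red blood cell list held 0.0602% and 0.00885%, where Mir451a (529 and 52.2 CPM) and Mir144 (57.8 and 6.30 CPM) were called lower and Mir486 (15.0 and 29.9 CPM) higher. Vessel microRNAs held 2.04% and 2.18% (1 lower, 2 higher), oligodendrocyte microRNAs 0.339% and 0.562% (none lower, 2 higher, 1 neither), and those of microglia and leukocytes 0.193% and 0.208% (2 lower, 1 higher, 2 neither). The part of such shifts in the differences at the 6 loci was not tested.

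Over the 2 libraries, the detected gene nearest to each locus in log2(CPM + 1) was taken as the most alike in level. For Mir128-1 it was Mir26b (12983 and 7666 CPM; distance 0.07), for Mir128-2 Mir434 (2353 and 1638 CPM; 0.29) and for Mir129-1 Mir1306 (239 and 170.2 CPM; 0.07). For Mir129-2 it was Mir341 (1802 and 979.7 CPM; 0.12), for Mir138-1 Mir378a (3801 and 3273 CPM; 0.32) and for Mir138-2 Mir369 (2862 and 2276 CPM; 0.23). The microRNAs with the seed of miR-128-3p shifted by a base were below both miR-128 loci: Mir27b stood at 1227 and 1701 CPM, Mir27a at 183 and 141 CPM, and Mir216a at 2.43 and 0.675 CPM. Mir6991 was at 0.609 and 0.450 CPM, no more than the 3 reads that a count of 0 allows.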

How the data were processed

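MicroRNA-seq of 2 libraries of 1 group was used. The deposited tables give raw counts for 2202 microRNA genes against mm10 and GENCODE M21, per the notes deposited with the files; which aligner and counter made them is not given in the sources used here. Their 3 count columns (without strand, sense, antisense) and lines of unassigned reads resemble STAR gene counts, an inference from the layout. In the sense column 25.6% and 34.3% of reads were unmapped and 38.5% and 33.0% mapped to several places. These stayed out of CPM. Sense counts were used. A count of 0 allows up to 3 reads, 0.609 and 0.675 CPM, for counting error only.

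The loci and lists were chosen with earlier results of these data known. Named genes are the 6 loci, the nearest gene to each, the 2 widest and 2 narrowest other families with 2 detected loci, and the 3 most abundant other neuronal microRNAs. Mir129b, Mir27a, Mir27b, Mir216a and Mir6991 were named afterwards, for position or sequence, and Mir7b for its symbol. The members named from the lists of other cell types were named for their values. Binomial and Fisher tests (scipy 1.17.1) used a threshold of 0.05. TMM factors and the spread came from edgeR 4.0.16 and size factors from DESeq2 1.42.0 (R 4.3.3). Both tests were tried on simulated counts that held counting error and no further spread between libraries. How often they call genes under the spread of these libraries was not simulated. Alternatives were the column without strand, other scalings, other count filters, 0.5 counts added to each locus and either library alone. Hairpin ends in RefSeq and GENCODE M21 were the same at 6 of 6 loci. The count of reads by arm was not analysed here.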

Additional observations from a re-analysis of the deposited data

Results flagged for a closer look

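Reads on the strand opposite to Mir129-2, where Mir129b is annotated, are in a count column that the comparisons did not use. They came to 1 read in replicate 1 and 4 reads in replicate 2. The second was flagged for exceeding the 3 reads that a count of 0 allows, which is no test of a signal. The sense count of Mir129b held the same 1 and 4 reads.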

How the results depend on the processing

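The results that turned or were lost involve miR-129 in the column without regard to strand, Mir138-1 and the miR-138 ratio. In that column the log2 ratio of Mir129-1 to Mir129-2 was 5.38 in place of -2.71, its change from replicate 1 to 2 was -1.51 in place of 0.32, and the log2 ratio of replicate 2 to replicate 1 at Mir129-2 was 1.11 (adjusted p = 0.0225, exact binomial test) in place of -0.73. By its construction that column leaves out reads listed as ambiguous. From single libraries the log2 ratio between loci went from 2.10 to 2.25 in miR-128, from -2.87 to -2.54 in miR-129 and from -0.061 to 0.23 in miR-138, and the share of the 6 loci from 1.59% to 2.47%. The loss at Mir138-1 arose with TMM scaling, and the cause was not tested. Scaling to all reads of the table lowered all 6 levels, for instance to 3016 CPM at Mir128-1, since its total is larger, and without strand Mir138-1 stood at 3266 CPM and Mir129-2 at 5.51 CPM. Adding 0.5 counts to each locus turned none of these values, and could not at counts this high. The count filter sets only which genes enter the adjustment of p-values, so it could not turn a ratio. Leaving out 1 member of each marker list was chosen after seeing the data. Of the other alternative values, 91 were labelled as kept, 8 moved further, 1 lost its call and 4 turned. Kept values held their direction and call or moved by less than the spread. Counts of genes or families were labelled as kept when near the main count. A value from 1 library always lies within the SD of 2 libraries around their mean, so there only a turn could be seen. Without a filter 766 genes were tested and 275 called (35.9%); with at least 100 counts in each library 270 were tested and 218 called (80.7%). The p-values cover counting error in 2 libraries, and no paired analysis was possible because there is 1 group.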

Other observations

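The predicted folding energy of the hairpins (RNAfold, minimum free energy) was -29.3 kcal/mol for Mir128-1 and -37.3 for Mir128-2, -31 for Mir129-1 and -48 for Mir129-2, and -45.5 for Mir138-1 and -29.3 for Mir138-2. The hairpins differ in length, from 70 bases in Mir128-1 to 99 in Mir138-1. The locus with more assigned reads was the one with the weaker predicted fold in miR-128 and the one with the stronger in miR-129. The energies are a description, with no test.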
